A study of Ovis aries with 32 samples.

Results

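The comparison described here is the differentiation of perirenal preadipocytes from growth-restricted male sheep fetuses into mature adipocytes. It rests on 8 of the 32 RNA-seq libraries of the series, namely 4 of undifferentiated preadipocytes (MFGR) and 4 of adipocytes differentiated from such cells (MFGRD), chosen by their labels alone. The other 24 libraries come from control males (MC and MCD), control females (FC and FCD) and growth-restricted females (FFGR and FFGRD), 4 libraries a group, where the final D marks differentiated cells, and they serve here only to set the MFGR response beside theirs. All fetuses were near-term singletons of crossbred Columbia-Rambouillet ewes. The ewes of the growth-restricted groups had been held at an elevated ambient temperature through mid-gestation, and the control ewes were pair-fed to them at a thermoneutral temperature. The undifferentiated libraries carry the treatment label Control and the differentiated ones are labelled as mature adipocytes. The composition of the differentiation medium is not given in the sources used here, and each library is a culture of cells that had been isolated from the fat around the kidney. Values are normalized reads per gene, summed over the transcripts of the gene, and values of the 4 libraries of a group are always given in the order of replicates 1 to 4.

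Preadipocytes are fibroblast-like cells that hold the contractile fibers and the matrix of connective tissue. Under hormones such as glucocorticoids and insulin they leave this state, switch on the transcription factors PPARG and CEBPA, and fill with lipid droplets that are coated by perilipins and fed by fatty acid carriers and triglyceride-making enzymes. Perirenal fat of the newborn lamb is known as a depot of heat-producing brown fat, marked by the uncoupling protein UCP1.

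The 8 libraries held sums of 11430000 to 15660000 normalized reads, or approximately 8695000 to 21300000 reads when the smallest step between low values is taken as 1 read. A normalized value of 10 stood for 5.551 to 14.37 reads. Replicate 1 of both groups stood apart from the other 6 libraries. It was separated from them on the first principal component, which held 40.9% of the variance, at -130 and -69.5 against -12.3 to 60.5. The slope of log2 value on the genomic span of the transcript (per 10-fold of span) was -0.986 in MFGR replicate 1 and -0.909 in MFGRD replicate 1, against -0.00225 to 0.253 in the others, so short genes read higher and long genes lower in these libraries. MFGRD replicate 1 had 16927 genes above 0 and the other 7 libraries had 13808 to 14331. The mean span slope did not separate the stages (difference -0.0338, exact permutation test, two-sided p = 0.857), and the second component, with 31% of the variance, placed all MFGR libraries at -75 to -22 and all MFGRD libraries at 27 to 81. Because these libraries stand apart, the counts of calls below are also given without them where they differ.

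**Figure D1:**
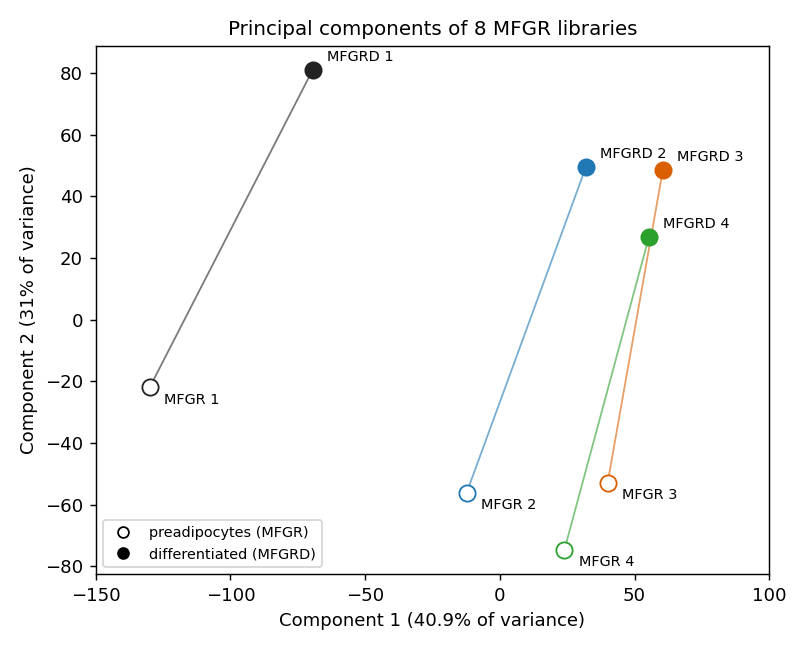
First and second principal components of log2(value + 1) in the 8 libraries, with 1 point for each library (open for MFGR, filled for MFGRD), a line joining same-numbered libraries and the share of the variance on each axis. The stages separate along the second component, and both libraries with the number 1 lie apart from the other 6 on the first.

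Same-numbered libraries of the stages varied together. The correlation of their deviations from the group means was 0.744, 0.437, 0.617 and 0.578 for numbers 1 to 4, whereas libraries with different numbers gave -0.536 to 0.21, and each library correlated best with its own number. The labels do not say that a number stands for a fetus. Counts of calls are therefore also given for a fit with the replicate number as a block where they differ.

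The summed values of adipocyte markers separated the stages and those of preadipocyte markers did not. Single preadipocyte markers did so, as the groups of 3 of the 8 tested did not overlap, against 11.1% of all genes tested. All 9 tested members of a list of adipocyte markers had a higher mean in MFGRD and 4 of them were called (6 with the block, 5 without the replicate 1 libraries), and the summed value of the list ran from 286 to 863 in MFGR and from 7121 to 127821 in MFGRD, without overlap. Of 8 preadipocyte markers, 4 had a higher and 4 a lower mean in MFGRD (median log2 fold change 0.19). The TGF-beta co-receptor ENG fell (723, 769, 678 and 419 in MFGR and 205, 93.1, 113 and 93.9 in MFGRD; log2 fold change -2.39 ± 0.34, adjusted p = 0.00999), whereas 2 markers rose and 2 fell with the block, and stromal markers such as PDGFRA (1995, 15641, 10788 and 9164 in MFGR and 2529, 17058, 9732 and 25771 in MFGRD) were well above 1000 in all libraries of both stages. Most markers of other cells were below the level for a test. Of the endothelial markers 2 of 9 reached the level needed for a test and ERG, an endothelial transcription factor, fell (36.2 to 127 in MFGR, 3.11 to 7.22 in MFGRD, adjusted p = 0.0144). Of the macrophage and leukocyte markers 3 of 11 were tested and none was called by limma, all 3 having an unadjusted p below 0.05 (1 rose with the block), with CD163, a scavenger receptor of macrophages, at 3.48, 2.18, 4.98 and 4.25 in MFGR and 25.1, 42.8, 541 and 18.1 in MFGRD (adjusted p = 0.0887, 0.0271 with the block). None of 4 blood cell markers was tested. Of the smooth muscle and pericyte markers 8 were tested and none was called (5 with an unadjusted p below 0.05, 1 higher and 2 lower with the block and 1 lower without the replicate 1 libraries). The skeletal muscle list was represented by DES, a muscle intermediate filament protein (25.3 to 270.3 against 8.63 to 27.0, adjusted p = 0.0684, 0.00891 with the block), and neither the 1 mesothelial nor the 2 Schwann cell and neural markers tested were called by limma (0 with an unadjusted p below 0.05, and 0 and 1 with the block). Of the kidney and adrenal list (2 tested, 1 higher, and 1 lower as well with the block), CYP11A1, the enzyme that starts steroid synthesis, was listed at 0 in all MFGR libraries and at 14.4, 50.2, 41.8 and 10.3 in MFGRD (adjusted p = 0.00995). ERG, CD163 and CYP11A1 entered the test through the stage in which they were high. The part of other cells in the results was not tested, and in such bulk samples fewer cells of a type cannot be told apart from less RNA per cell.

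Differentiation changed the values of 393 of the 11624 genes tested, or 3.38%, and decreases outnumbered increases. Genes entered the test when 4 or more of the 8 libraries had a value of 10 or higher, and a gene was called at an adjusted p below 0.05 and a fold change above 1.5 in limma on log2(value + 1). Of the calls, 142 were higher in MFGRD (1.22% of the genes tested) and 251 were lower (2.16%). Of the 393, 39 had no name in the annotation. The groups did not overlap in any of the 393 called genes, and all 4 same-numbered pairs moved in the direction of the call. Of the called genes, 77 had entered the test through 1 stage alone, with no library at 10 or higher in the other stage. The choice of such genes favors a difference, and 77 of 105 of them were called (73.3%), so their calls are a description of on and off genes, whereas 316 of the other 11519 genes tested were called (2.74%), 100 higher and 216 lower. Among all genes tested, 1296 (11.1%) had groups that did not overlap. With the replicate number as a block 2081 genes were called (17.9%), 982 higher (8.45%) and 1099 lower (9.45%), and all 393 were among them in the same direction. Without the replicate 1 libraries 579 genes were called, 198 higher and 381 lower, and 318 of the 393 were among them. The count depended on single libraries and was 135 without MFGRD replicate 2, 137 without MFGR replicate 2, 166 without MFGRD replicate 3, 189 without MFGR replicate 4 and 220 without MFGRD replicate 4. The median log2 fold change over all genes tested was 0.06. Fold changes below are given on the log2(value + 1) scale with their standard error (SE, 4 against 4 libraries). This scale understates the change of low genes, and for genes near 0 in MFGR the fold change depends on the 1 that was added.

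The largest increase was that of ZBTB16, a zinc finger transcription factor that glucocorticoids induce. It is 1 of 8 genes among the 15 largest increases that entered the test through MFGRD alone, the others being ITIH5, COL28A1, KLB, NR5A2, OXT, THRSP and PPP1R1B. This gene lies on chromosome 15, from 27130991 to 27329387 (Oar_rambouillet_v1.0), and its values were 0.698, 1.09, 0 and 1.06 in MFGR and 343, 1688, 2201 and 2409.9 in MFGRD (log2 fold change 9.65 ± 0.64, adjusted p = 0.000628). It was practically off in preadipocytes and the lowest of the differentiated libraries was replicate 1. ITIH5, which encodes a protein that binds to hyaluronan in the matrix, had values of 2.79, 2.18, 0 and 0 in MFGR and 790, 6769.6, 152 and 4753 in MFGRD (log2 fold change 9.56 ± 1.15, adjusted p = 0.00594) and varied widely among the MFGRD libraries. FABP4, the fatty acid carrier of adipocytes (chromosome 9, 62825357 to 62830354), was at 113, 34.1, 8.45 and 6.19 in MFGR and 98379, 10983, 4058 and 4055 in MFGRD (log2 fold change 8.98 ± 1.18, adjusted p = 0.00785). Here replicate 1 was by far the highest of MFGRD, and without the replicate 1 libraries the log2 fold change was 8.73 (adjusted p = 0.00461). PTX3, a secreted pentraxin of innate immunity, had values of 399, 123, 119 and 107 in MFGR and 32032, 50475, 79549 and 31275 in MFGRD (log2 fold change 8.14 ± 0.50, adjusted p = 0.000628). The lowest MFGRD value of PTX3 was thus far above the highest MFGR value.

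IGF2, the fetal growth factor (chromosome 21, 51230111 to 51254773), was at 16.6, 1.07, 0 and 0 in MFGR and 1324, 1075, 435 and 188 in MFGRD (log2 fold change 7.90 ± 1.00, adjusted p = 0.00728), and PAPPA2, a protease that cleaves IGF-binding proteins, had values of 4.19, 5.46, 3.74 and 29.8 in MFGR and 385, 4806, 1288 and 2614 in MFGRD (log2 fold change 7.56 ± 0.85, adjusted p = 0.00455). Both were near 0 in most preadipocyte libraries. OXT, which encodes the peptide hormone oxytocin, had values of 2.03, 0, 0 and 0 in MFGR and 110.2, 355, 90.8 and 105 in MFGRD (log2 fold change 6.73 ± 0.61, adjusted p = 0.00183). COL28A1, a minor collagen, had values of 0.697, 0, 0 and 0 in MFGR and 1033, 218, 48.6 and 828 in MFGRD (log2 fold change 8.09 ± 0.91, adjusted p = 0.00455). NR5A2, a nuclear receptor known from steroid and bile acid synthesis, had values of 1.39, 0, 0 and 0 in MFGR and 64.8, 135, 622 and 81.8 in MFGRD (log2 fold change 6.88 ± 0.75, adjusted p = 0.00425), and was highest in MFGRD replicate 3. Of the remaining genes among the 15 with the largest increase, NPR3, a receptor that clears natriuretic peptides, had values of 3.49, 17.4, 3.72 and 5.30 in MFGR and 359, 1203, 621 and 539 in MFGRD (log2 fold change 6.45 ± 0.55, adjusted p = 0.00182). PPP1R1B, an inhibitor of protein phosphatase that protein kinase A switches on, had values of 0, 1.07, 0 and 0 in MFGR and 732, 70.9, 92.0 and 31.8 in MFGRD (log2 fold change 6.55 ± 0.90, adjusted p = 0.00884). Its MFGRD values were again highest in replicate 1. PDK4, KLB, ADIPOQ and THRSP complete the group and are given with their functions further on.

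The 15 largest decreases included 2 genes that entered the test through MFGR alone, HSPB7 and GREM1. CPXM2, a secreted protein of the carboxypeptidase family, had values of 748, 1499.6, 249 and 2821 in MFGR and 55.7, 61.2, 1.55 and 11.2 in MFGRD (log2 fold change -5.70 ± 1.11, adjusted p = 0.0308). CTHRC1, a secreted protein of activated fibroblasts, had values of 365, 409, 2591 and 2680.3 in MFGR and 18.3, 30.9, 30.5 and 28.5 in MFGRD (log2 fold change -5.20 ± 0.70, adjusted p = 0.00864). DPT, which encodes dermatopontin, a small matrix protein, had values of 4375, 2932, 10419.9 and 2324 in MFGR and 263, 118, 80.6 and 227 in MFGRD (log2 fold change -4.76 ± 0.55, adjusted p = 0.00459). For these genes the highest MFGRD value was lower than the lowest MFGR value by a wide margin. RRAD, a small GTPase of muscle that restrains calcium channels, had values of 1309.5, 1071, 719 and 845 in MFGR and 83.6, 36.0, 6.23 and 20.7 in MFGRD (log2 fold change -5.18 ± 0.67, adjusted p = 0.00728). JPH2, also known from muscle, which links the cell membrane to calcium stores, had values of 276, 679, 493 and 581 in MFGR and 21.5, 37.7, 7.73 and 8.62 in MFGRD (log2 fold change -4.87 ± 0.54, adjusted p = 0.00428). HSPB7, a small heat shock protein of muscle, had values of 60.4, 35.3, 41.3 and 14.5 in MFGR and 0, 4.19, 0 and 0 in MFGRD (log2 fold change -4.53 ± 0.74, adjusted p = 0.0155), and its adjusted p was 0.0509 without the replicate 1 libraries. CNGA3, a cyclic nucleotide-gated channel, had values of 622, 611, 249.8 and 277 in MFGR and 19.8, 21.0, 7.74 and 26.7 in MFGRD (log2 fold change -4.47 ± 0.48, adjusted p = 0.00425), and like the others was lower in every MFGRD library.

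The transmembrane protein SLITRK2 fell, with values of 102 to 1185 in MFGR and 0.774 to 21.6 in MFGRD (log2 fold change -5.45 ± 0.97, adjusted p = 0.0233), and ESM1, a proteoglycan best known from endothelium, was at 66.1 to 263 in MFGR and 0 to 12.6 in MFGRD (log2 fold change -4.78 ± 0.90, adjusted p = 0.028). The remaining genes among the 15 with the largest decrease were GREM1, INHBA, SFRP4, CRABP2, FLNC and FABP3, which belong to the pathways below. The libraries with the highest MFGRD value of a called decrease were spread over all replicates, with 95 of the 251 highest in replicate 1 and 44, 46 and 66 in replicates 2, 3 and 4. Of the 142 called increases, replicate 1 was the highest MFGRD library in 55 and the lowest in 35, and replicate 4 was the lowest in 63.

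**Figure D2:**
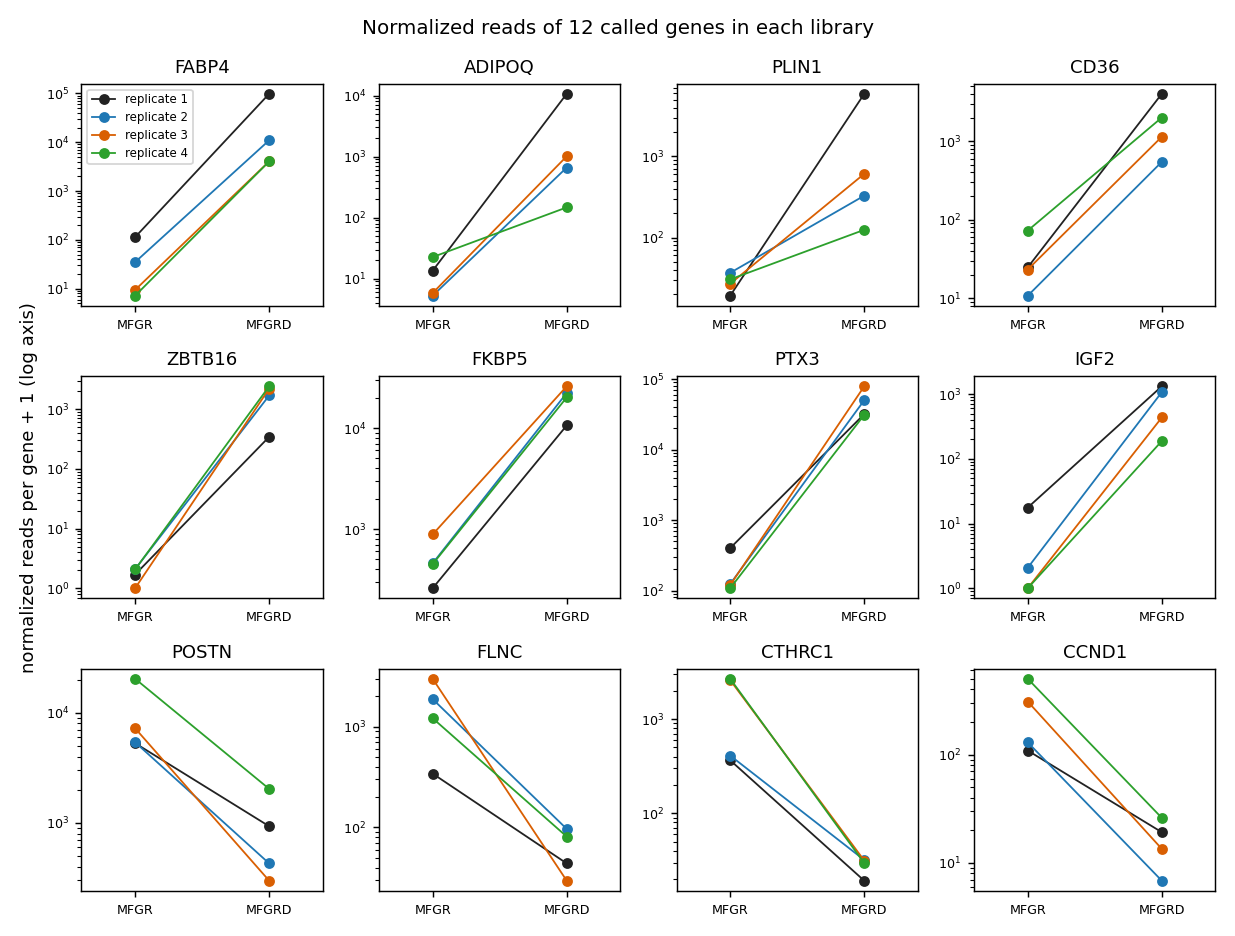
Normalized values of 12 genes in the 4 MFGR and 4 MFGRD libraries, plotted as value + 1 on a log axis, with 1 point for each library, colored by replicate number, and a line joining same-numbered libraries. FABP4, ADIPOQ, PLIN1, CD36, ZBTB16, FKBP5, PTX3 and IGF2 were higher in every MFGRD library and POSTN, FLNC, CTHRC1 and CCND1 were lower.

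Transcription factors that drive adipogenesis moved unequally. Of the 17 tested, 4 rose and none fell (8 rose with the block, 2 without the replicate 1 libraries), and the median log2 fold change was 0.72. Besides ZBTB16, these were EBF1, an early factor of the adipocyte lineage (288, 444, 452 and 416 in MFGR and 849, 1629, 1118 and 1438 in MFGRD; log2 fold change 1.63 ± 0.29, adjusted p = 0.0233), KLF9 (33.2, 132, 29.8 and 120.3 in MFGR and 249.6, 666, 351 and 448 in MFGRD; log2 fold change 2.65 ± 0.57, adjusted p = 0.0415) and STAT5A, which carries growth hormone signals (264, 386, 218 and 294 in MFGR and 735, 710.3, 709 and 511 in MFGRD; log2 fold change 1.21 ± 0.27, adjusted p = 0.0451). The groups of each were apart by modest margins, and without the replicate 1 libraries KLF9 and STAT5A had an adjusted p of 0.0569 and 0.0636. PPARG, the master regulator of fat cells, had values of 505, 144, 14.8 and 74.8 in MFGR and 1489.6, 236, 174 and 208 in MFGRD (log2 fold change 1.80 ± 1.06, adjusted p = 0.495, 0.038 with the block). Its groups overlapped, since MFGR replicate 1 was already at 505. CEBPA, which acts with PPARG, had values of 29.9, 26.8, 8.53 and 2.08 in MFGR and 1155, 279.6, 123 and 58.7 in MFGRD without overlap (log2 fold change 4.14 ± 1.02, adjusted p = 0.0681, 0.00279 with the block). CEBPB and CEBPD, factors of the first hours of differentiation, had log2 fold changes of -0.28 ± 0.59 and 0.72 ± 0.59 (adjusted p = 0.898 and 0.667). Of 16 regulators that hold back adipogenesis none was called by limma (5 had an unadjusted p below 0.05, and 5 rose and 1 fell with the block). Among them KLF2 was at 27.3 to 223 in MFGR and 8.63 to 32.5 in MFGRD (adjusted p = 0.118, 0.00813 with the block) and the bone lineage factor RUNX2 was changed by 0.99 ± 0.90 on the log2 scale (adjusted p = 0.706, 0.0403 with the block).

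Genes known to be induced by glucocorticoids rose more often than any other pathway list of at least 8 tested members. Of 17 tested, 8 rose and none fell (10 rose with the block, 7 without the replicate 1 libraries), and the median log2 fold change was 2.03. FKBP5, a chaperone that dampens the glucocorticoid receptor, had values of 259, 457, 884 and 448 in MFGR and 10621, 22270, 25935 and 20125 in MFGRD (log2 fold change 5.33 ± 0.43, adjusted p = 0.00182). The groups of FKBP5 lay far apart in all libraries. PER1, a clock gene with a glucocorticoid response, had values of 30.7, 89.4, 49.8 and 90.4 in MFGR and 326, 357, 420.4 and 521 in MFGRD (log2 fold change 2.73 ± 0.39, adjusted p = 0.00999), and GLUL, glutamine synthetase, had values of 564, 736, 392 and 476 in MFGR and 4569.9, 2000.3, 2684 and 4181 in MFGRD (log2 fold change 2.59 ± 0.34, adjusted p = 0.00803). PDK4, the kinase that turns off pyruvate dehydrogenase, had values of 0, 17.3, 0 and 13.7 in MFGR and 481, 480.1, 260.3 and 1775 in MFGRD (log2 fold change 7.14 ± 1.10, adjusted p = 0.0131). NFKBIA, the inhibitor of NF-kappaB, had values of 135, 86.9, 163 and 118 in MFGR and 675, 536, 710.2 and 311 in MFGRD (log2 fold change 2.11 ± 0.34, adjusted p = 0.0155), and MAOA, an amine oxidase, rose, with values of 169 to 540.2 in MFGR and 842 to 1458 in MFGRD (adjusted p = 0.0343, 0.0591 without the replicate 1 libraries). ZBTB16 and KLF9 are also on this list. Other members gave no call. CRISPLD2 was at 395 to 2086 and 1543 to 9011 (adjusted p = 0.154, 0.00745 with the block), and DUSP1, a phosphatase that turns off MAP kinases, had a log2 fold change of 0.66 ± 0.45 with overlapping groups.

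Genes of fat storage were called in part. Of 13 genes of fatty acid uptake and binding, FABP4 and CD36 rose and FABP3 fell (5 rose and 2 fell with the block, 2 and 2 without the replicate 1 libraries). CD36, the fatty acid translocase, had values of 23.7, 9.75, 22.2 and 71.7 in MFGR and 4034, 546, 1142 and 2008 in MFGRD (log2 fold change 5.86 ± 0.72, adjusted p = 0.00644). FABP3, the carrier of heart and muscle, went the other way from FABP4, with values of 1115, 660.3, 172 and 938 in MFGR and 94.5, 55.1, 18.2 and 6.06 in MFGRD (log2 fold change -4.33 ± 0.88, adjusted p = 0.0349). LPL, the lipase that frees fatty acids from circulating lipoproteins, had values of 376, 574, 22.2 and 205 in MFGR and 1354, 945, 195 and 296 in MFGRD with overlapping groups (log2 fold change 1.54 ± 1.03, adjusted p = 0.56). The fatty acid transport proteins SLC27A3 and SLC27A4 had log2 fold changes of 2.67 ± 0.70 and 1.10 ± 0.30 and were called with the block (adjusted p = 0.0837 and 0.0991, 0.0221 and 0.018 with the block). Of 9 acyl-CoA synthetases, which activate fatty acids, none rose and ACSL5 fell (1008, 709, 504 and 623 in MFGR and 189, 82.2, 56.5 and 74.1 in MFGRD; log2 fold change -2.92 ± 0.41, adjusted p = 0.00884). ACSL1, the main form of adipocytes, had values of 273, 594, 248 and 673 in MFGR and 15818, 1637, 2048 and 782 in MFGRD, highest in MFGRD replicate 1 and without overlap (log2 fold change 2.64 ± 0.84, adjusted p = 0.155).

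Among 10 genes of the lipid droplet 3 rose and none fell (4 rose with the block). PLIN1, the perilipin of large droplets, had values of 18.1, 35.7, 25.9 and 29.5 in MFGR and 5937, 328, 610.2 and 124 in MFGRD (log2 fold change 4.50 ± 1.01, adjusted p = 0.0479), PLIN2, the perilipin of small droplets, had values of 1785, 699, 695 and 562 in MFGR and 8770.2, 7549, 3199 and 8669.8 in MFGRD (log2 fold change 2.97 ± 0.47, adjusted p = 0.014), and PLIN4 had values of 2.09, 4.36, 1.24 and 5.31 in MFGR and 242, 69.6, 83.5 and 19.8 in MFGRD (log2 fold change 4.24 ± 0.74, adjusted p = 0.0218). PLIN2 was lowest in MFGRD replicate 3, whereas PLIN1 and PLIN4 were highest in replicate 1 and lowest in replicate 4. CIDEC, which fuses droplets, had values of 5.55, 3.21, 1.22 and 1.04 in MFGR and 328, 10.0, 11.7 and 15.5 in MFGRD (adjusted p = 0.191, 0.0372 with the block). Of 15 genes of triglyceride synthesis 1 rose (1 rose and 1 fell with the block, 3 rose without the replicate 1 libraries). This was DGAT2, the enzyme of the last step (2.77, 2.15, 0 and 0 in MFGR and 2757, 122, 77.3 and 23.3 in MFGRD; log2 fold change 6.42 ± 1.31, adjusted p = 0.0362), which entered the test through MFGRD alone, like PLIN4 and CIDEC, and whose MFGRD values spread over 2 orders of magnitude with replicate 1 the highest. With 10 in place of 1 added before the logarithm, DGAT2 was not called (adjusted p = 0.108). The acyltransferases GPAM and GPAT3 were at 19.5 to 323 and 4.17 to 16.2 in MFGR and at 574 to 1235 and 42.7 to 817 in MFGRD without overlap, but were not called (adjusted p = 0.173 and 0.0928).

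Lipolysis was represented by 9 tested genes, all with a higher mean in MFGRD, of which NPR3 and PDE3B rose (4 rose with the block). PDE3B, the phosphodiesterase through which insulin restrains lipolysis, had values of 32.8, 195, 321 and 183 in MFGR and 2650, 1159, 884 and 835 in MFGRD (log2 fold change 3.13 ± 0.69, adjusted p = 0.0458). The lipases were not called. PNPLA2 had values of 167, 131, 145 and 148 in MFGR and 2357, 366, 474 and 232 in MFGRD (adjusted p = 0.174, 0.0441 with the block) and LIPE, hormone-sensitive lipase, was at 1.24 to 20.6 in MFGR and at 1750.1, 64.6, 167 and 31.0 in MFGRD (adjusted p = 0.149, 0.0629 with the block). In both, the groups did not overlap and replicate 1 was far above the other MFGRD libraries. Of 15 genes of fatty acid synthesis and desaturation 1 rose, THRSP, a regulator of lipogenesis (1.35, 0, 0 and 0 in MFGR and 2103, 30.3, 76.8 and 49.9 in MFGRD; log2 fold change 6.68 ± 1.21, adjusted p = 0.0242), and 7 of the 15 had a higher mean in MFGRD. With the block, and likewise without the replicate 1 libraries, 1 rose and 2 fell. THRSP, too, entered the test through MFGRD alone and was not called with 10 added (adjusted p = 0.108). The enzymes of the pathway, ACLY, ACACA, ACACB and FASN, had log2 fold changes of -0.71 ± 0.40, 0.04 ± 0.64, 0.48 ± 0.85 and 0.33 ± 0.63, none of them called, and the signs of ACACA and FASN turned negative without the replicate 1 libraries (-0.67 and -0.46).

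The adipokines, hormones released by fat cells, included 3 genes that rose among 13 tested (6 rose and 1 fell with the block). ADIPOQ, adiponectin (chromosome 1, 218921967 to 218933226), was at 12.5, 4.24, 4.80 and 21.5 in MFGR and 10713, 661, 1012 and 146 in MFGRD (log2 fold change 6.69 ± 1.15, adjusted p = 0.0199). Replicate 1 of MFGRD was more than 10 times the next library, and without the replicate 1 libraries the log2 fold change was 5.71 (adjusted p = 0.021). KLB, beta-klotho, the co-receptor of the hormone FGF21, was listed at 0 in all MFGR libraries and at 649, 101, 175 and 33.6 in MFGRD (adjusted p = 0.00455). Because it passed the level for a test through MFGRD alone, this p adds nothing to the values. PTX3 was given above. RBP4 and RARRES2 were called with the block (adjusted p = 0.391 and 0.464, 0.0138 and 0.0111 with the block).

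None of 9 genes of brown fat and heat production was called by limma (2 had an unadjusted p below 0.05), and UCP2 rose with the block and without the replicate 1 libraries (adjusted p = 0.0905, 0.0156 and 0.0332), having entered the test through MFGRD alone. UCP1 itself did not reach the level for a test, at 0, 0, 1.23 and 2.10 in MFGR and 103, 0.837, 5.42 and 0.861 in MFGRD, so that it was above 10 in MFGRD replicate 1 alone. PPARGC1A, a coactivator that raises mitochondrial genes, had values of 4.85, 21.8, 12.4 and 41.0 in MFGR and 19.7, 41.9, 18.6 and 42.2 in MFGRD with overlapping groups (log2 fold change 0.83 ± 0.64, adjusted p = 0.638). Of 18 genes of mitochondrial fatty acid oxidation none was called (0 had an unadjusted p below 0.05 and 3 rose with the block), with CPT1A, the entry step, at a log2 fold change of 0.86 ± 0.47 (adjusted p = 0.444, 0.0418 with the block) and CPT2, the inner carnitine palmitoyltransferase, at -0.23 ± 0.35. Of 16 peroxisomal genes 2 rose, ABCD2, a transporter of very long-chain fatty acids (0, 0, 0 and 1.06 in MFGR and 144, 48.6, 15.5 and 33.6 in MFGRD; log2 fold change 5.23 ± 0.72, adjusted p = 0.00884), and SCP2, a sterol and lipid carrier (208, 259, 224 and 315 in MFGR and 831, 844, 1027 and 576 in MFGRD; log2 fold change 1.69 ± 0.27, adjusted p = 0.0147), and 3 rose with the block. ABCD2 entered the test through MFGRD alone, so its p adds nothing to its values. None of 20 respiratory chain genes and none of 18 genes of branched-chain amino acid breakdown was called by limma (0 and 1 had an unadjusted p below 0.05, 0 and 2 were lower with the block, and 0 and 1 without the replicate 1 libraries).

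The IGF axis moved on several levels, with 5 of 16 tested members higher and 1 lower (6 and 1 with the block, 4 and 1 without the replicate 1 libraries). Beside IGF2 and PAPPA2, IGFBP3, the main carrier of IGFs in plasma, had values of 135, 28.2, 32.2 and 33.9 in MFGR and 1431, 564, 677 and 783 in MFGRD (log2 fold change 4.13 ± 0.53, adjusted p = 0.00757), and GHR, the growth hormone receptor, had values of 86.4, 157, 336 and 214 in MFGR and 1150.2, 695, 779.6 and 541 in MFGRD (log2 fold change 2.10 ± 0.43, adjusted p = 0.0376). STC1, an inhibitor of the PAPP-A proteases that entered the test through MFGRD alone, rose, with values of 0 to 3.59 in MFGR and 10.4 to 148 in MFGRD (adjusted p = 0.0335, 0.0682 without the replicate 1 libraries). IGFBP6, a carrier that prefers IGF2, fell, with values of 30253, 10369, 6048 and 3717 in MFGR and 2121, 739.9, 413 and 673 in MFGRD (log2 fold change -3.49 ± 0.70, adjusted p = 0.0344). The ligand IGF1 and the receptor IGF1R had log2 fold changes of 0.86 ± 0.46 and 0.30 ± 0.68, neither of them called. IGF2 was also the only called member of 11 imprinted growth genes (2 rose and 1 fell with the block, and 2 rose without the replicate 1 libraries), and PEG10, a retrotransposon-derived gene of the placenta, was at 193 to 997 in MFGR and 954 to 6046 in MFGRD (adjusted p = 0.0803, 0.00606 with the block). In insulin signalling none of 18 genes was called by limma (4 had an unadjusted p below 0.05 and 3 rose with the block). INSR, IRS1 and IRS2 had log2 fold changes of 1.35 ± 0.89, 0.91 ± 0.66 and 1.00 ± 0.63, and PIK3R1, a regulatory subunit of the lipid kinase downstream of them, of 1.99 ± 0.49 (adjusted p = 0.0679, 0.00607 with the block). Of 21 genes of glucose use only PDK4 was called (4 rose with the block), and the transporters SLC2A1 and SLC2A3 and the hexokinase HK1 had log2 fold changes of 1.04 ± 0.68, 0.94 ± 0.65 and 0.53 ± 0.32. HK2 was called with the block (adjusted p = 0.0273).

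Of 24 matricellular and fibrillar matrix genes 6 fell and none rose (2 rose and 8 fell with the block), 6 had a higher and 18 a lower mean in MFGRD, with a median log2 fold change of -1.04. POSTN, periostin, had values of 5295, 5399, 7232 and 20370.1 in MFGR and 930.3, 427, 297 and 2033 in MFGRD (log2 fold change -3.52 ± 0.66, adjusted p = 0.028). TGFBI, a matrix protein induced by TGF-beta, had values of 7684, 17739.5, 38510.3 and 18375 in MFGR and 581, 1184, 3289 and 768 in MFGRD (log2 fold change -3.94 ± 0.63, adjusted p = 0.015), THBS2, thrombospondin 2, had values of 4346, 10928, 13562 and 9999 in MFGR and 699, 1374, 2853 and 1669 in MFGRD (log2 fold change -2.61 ± 0.50, adjusted p = 0.0297), and CCN2, connective tissue growth factor, had values of 3346, 3379, 7158 and 2777 in MFGR and 931, 726, 1098 and 835 in MFGRD (log2 fold change -2.12 ± 0.34, adjusted p = 0.0147). The MFGRD values of these genes lay below all MFGR values. FBLN5, which assembles elastic fibers, fell, with values of 1052 to 1790.2 in MFGR and 86.2 to 378 in MFGRD (log2 fold change -3.03 ± 0.45, adjusted p = 0.0117), and so did FMOD, fibromodulin, with 226 to 1969.8 in MFGR and 21.7 to 148 in MFGRD (adjusted p = 0.0353, 0.0795 without the replicate 1 libraries).

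Of 20 collagens tested 2 rose (8 rose and 3 fell with the block), COL18A1, a basement membrane collagen (456, 386, 443 and 93.5 in MFGR and 3906, 1698, 4445 and 3063 in MFGRD; log2 fold change 3.39 ± 0.55, adjusted p = 0.0155), and COL21A1 (6.99, 15.3, 4.98 and 17.0 in MFGR and 292, 939, 331 and 171 in MFGRD; log2 fold change 5.03 ± 0.58, adjusted p = 0.00465). The fibrillar collagens COL1A1, COL1A2 and COL3A1 had log2 fold changes of -0.30 ± 0.65, -0.17 ± 0.61 and -0.02 ± 0.58 with overlapping groups, and COL4A1, of the basement membrane, of 2.29 ± 0.57 (adjusted p = 0.0701, 0.0152 with the block). NID2, a linker of the basement membrane, rose (1216, 2873, 679 and 1871 in MFGR and 5268, 8358, 8106 and 8945 in MFGRD; log2 fold change 2.37 ± 0.45, adjusted p = 0.028), whereas the integrin subunit ITGA3 (92.1, 299, 84.5 and 280.2 in MFGR and 12.6, 11.7, 3.09 and 10.3 in MFGRD; log2 fold change -4.09 ± 0.59, adjusted p = 0.0106) and the laminin chain LAMA5 (28.6, 273, 231 and 92.8 in MFGR and 17.9, 15.9, 6.95 and 6.03 in MFGRD; log2 fold change -3.32 ± 0.73, adjusted p = 0.0453) fell, as the called members of 23 integrin and basement membrane genes (3 rose and 2 fell with the block). Of 19 matrix proteases and inhibitors TIMP3 rose (831, 568, 498 and 662 in MFGR and 4421, 2469, 2431 and 1193 in MFGRD; log2 fold change 1.92 ± 0.40, adjusted p = 0.0383) and PLAU, urokinase, fell (1054, 1079, 949 and 999 in MFGR and 219, 140, 86.7 and 72.4 in MFGRD; log2 fold change -3.10 ± 0.36, adjusted p = 0.00459), and 2 rose and 7 fell with the block. MMP1, interstitial collagenase, had values of 34.8, 17.3, 22.1 and 2288 in MFGR and 1.81, 1.68, 9.32 and 67.3 in MFGRD, so that MFGR replicate 4 stood far above all others (adjusted p = 0.419, 0.0225 with the block).

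Of 29 genes of the actin cytoskeleton 24 had a lower mean in MFGRD and 2 were called (7 with the block, 5 without the replicate 1 libraries), with a median log2 fold change of -0.67 (-0.40 without MFGR replicate 3). FLNC, filamin C, which crosslinks actin, had values of 342, 1883, 2998 and 1216 in MFGR and 42.9, 95.7, 28.6 and 80.1 in MFGRD (log2 fold change -4.46 ± 0.67, adjusted p = 0.0121), and PLS3, an actin-bundling protein, had values of 4732, 7209.8, 6673 and 8341 in MFGR and 1083, 1663, 2578 and 1365 in MFGRD (log2 fold change -2.06 ± 0.34, adjusted p = 0.0159). The smooth muscle actin ACTA2 had values of 10875, 5095, 18044 and 5105 in MFGR and 12810.3, 3396, 4598 and 564 in MFGRD (log2 fold change -1.37 ± 0.88, adjusted p = 0.542). Its groups overlapped, with MFGRD replicate 1 above 3 of the MFGR libraries. TAGLN and TAGLN2, the transgelins, had log2 fold changes of -0.60 ± 0.63 and -0.75 ± 0.53 (adjusted p = 0.763 and 0.592).

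In the Wnt pathway, which holds back adipogenesis, 3 of 21 genes rose and 2 fell (4 and 5 with the block, 2 and 4 without the replicate 1 libraries). The receptor FZD4 had values of 121, 567, 97.8 and 335 in MFGR and 2515, 2794, 1220 and 2029.8 in MFGRD (log2 fold change 3.22 ± 0.57, adjusted p = 0.0233) and an adjusted p of 0.0577 without the replicate 1 libraries. The antagonists were divided. WIF1, which binds Wnt ligands, rose (34.1, 16.3, 11.1 and 4.22 in MFGR and 378, 472, 174 and 166 in MFGRD; log2 fold change 4.26 ± 0.62, adjusted p = 0.0106), as did NKD1, an inhibitor inside the cell (0, 1.09, 12.4 and 2.12 in MFGR and 131, 280.1, 248 and 127 in MFGRD; log2 fold change 5.92 ± 0.76, adjusted p = 0.00728). SFRP1 (1283, 5145, 1919 and 1793 in MFGR and 115, 454, 154 and 416 in MFGRD; log2 fold change -3.18 ± 0.58, adjusted p = 0.0242) and SFRP4 (1187, 639, 1941 and 4433 in MFGR and 169.8, 102, 31.8 and 63.8 in MFGRD; log2 fold change -4.35 ± 0.67, adjusted p = 0.013), secreted decoys, fell. In TGF-beta, BMP and activin signalling 1 of 27 genes rose and 3 fell (5 and 8 with the block, 2 and 4 without the replicate 1 libraries). INHBA, the activin A subunit, had values of 155, 236, 3226 and 614 in MFGR and 10.8, 36.9, 59.7 and 12.1 in MFGRD (log2 fold change -4.41 ± 0.95, adjusted p = 0.0424). Its binding protein FST, follistatin, fell, with values of 235 to 401 in MFGR and 30.1 to 124 in MFGRD (adjusted p = 0.0329, 0.0619 without the replicate 1 libraries). GREM1, a BMP antagonist, had values of 142, 355, 42.4 and 343 in MFGR and 5.88, 8.35, 8.02 and 0.879 in MFGRD (log2 fold change -4.85 ± 0.79, adjusted p = 0.0155), and BMP4 itself rose (86.9, 49.6, 115 and 31.4 in MFGR and 249, 585, 375 and 242 in MFGRD; log2 fold change 2.41 ± 0.47, adjusted p = 0.0316). For the ligand TGFB1 the log2 fold change came to -1.37 ± 0.45 (adjusted p = 0.173).

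Retinoid genes moved in both directions, with 2 of 15 higher and 3 lower (4 and 4 with the block). Of the cellular retinoic acid carriers, CRABP1 rose (178, 14.6, 51.9 and 30.2 in MFGR and 798, 274, 450.1 and 444 in MFGRD; log2 fold change 3.31 ± 0.70, adjusted p = 0.0394) and CRABP2 fell (995, 533, 454 and 958 in MFGR and 56.7, 52.7, 5.47 and 47.6 in MFGRD; log2 fold change -4.47 ± 0.70, adjusted p = 0.014). DHRS3, which turns retinal back into retinol, rose (651, 306, 498 and 636 in MFGR and 5455, 1225, 3048 and 2689.5 in MFGRD; log2 fold change 2.44 ± 0.46, adjusted p = 0.0287), whereas ALDH1A3, which makes retinoic acid (368, 286, 445 and 1661 in MFGR and 34.2, 18.5, 45.8 and 18.1 in MFGRD; log2 fold change -4.24 ± 0.58, adjusted p = 0.00884), and the receptor RARG (388, 393, 176 and 272 in MFGR and 68.6, 50.3, 14.8 and 50.9 in MFGRD; log2 fold change -2.83 ± 0.50, adjusted p = 0.0233) fell.

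Of 15 inflammatory genes NFKBIA rose and 2 fell (1 and 3 with the block and without the replicate 1 libraries). The 2 were the chemokine CCL2 (4229, 1182, 4152 and 4118 in MFGR and 476, 183, 97.8 and 280.3 in MFGRD; log2 fold change -3.78 ± 0.58, adjusted p = 0.0129) and RELB, a subunit of NF-kappaB (242, 154, 218 and 313 in MFGR and 77.4, 21.0, 28.7 and 79.3 in MFGRD; log2 fold change -2.33 ± 0.49, adjusted p = 0.0389). None of 13 interferon response genes was called by limma (2 had an unadjusted p below 0.05 and 2 fell with the block), although all 13 had a lower mean in MFGRD, with a median log2 fold change of -1.39. This median rested in part on MFGR replicate 4, without which it was -0.585 and 11 of the 13 had a lower mean. The summed value of the tested genes was 79339.5 in that library against 3432 to 11422.4 in the other MFGR libraries and 3034 to 5963 in MFGRD. STAT2, IRF1 and IRF9 had log2 fold changes of -0.40 ± 0.38, -0.80 ± 0.68 and -1.19 ± 0.47. Of 8 complement factors none was called by limma, although 7 had an unadjusted p below 0.05 and 7 fell with the block, with a median log2 fold change of -2.01. C3, the central component, had values of 26503, 32276, 8622 and 47287 in MFGR and 1951, 5122, 679 and 13955 in MFGRD (adjusted p = 0.137, 0.00606 with the block), and C1R, C1S and C2 had log2 fold changes of -2.20 ± 0.73, -1.82 ± 0.66 and -3.08 ± 0.77 (adjusted p = 0.174, 0.213 and 0.0716, and 0.0111, 0.0138 and 0.00761 with the block).

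Cell cycle genes were called in 2 of 30 cases, and 13 rose and 2 fell with the block. Of the 30, 25 had a higher and 5 a lower mean in MFGRD, and 11 had an unadjusted p below 0.05 in limma. The median log2 fold change was 1.01 (0.823 without the replicate 1 libraries), and it was 0.705 in MC, 0.831 in FC and 0.879 in FFGR. The D-type cyclins, which drive entry into the cycle, moved in opposite directions, with CCND1 lower (108, 129, 308 and 501 in MFGR and 18.2, 5.86, 12.5 and 25.1 in MFGRD; log2 fold change -3.88 ± 0.60, adjusted p = 0.0135) and CCND3 higher (361, 249, 229 and 185 in MFGR and 1437, 909, 655 and 739 in MFGRD; log2 fold change 1.84 ± 0.33, adjusted p = 0.0239). TOP2A, a marker of dividing cells, had values of 110.3, 351, 3690.3 and 477 in MFGR and 821, 3020.1, 4859 and 2374 in MFGRD (adjusted p = 0.337, 0.0244 with the block), with MFGR replicate 3 inside the MFGRD range. CDK1 and CDK2 were called with the block (adjusted p = 0.0378 and 0.0133). Of 16 clock genes PER1 rose (2 rose and 4 fell with the block), and PER2 was called lower with the block (adjusted p = 0.0374). HSPB7 was the called member of 20 heat shock genes (1 rose and 4 fell with the block, none was called without the replicate 1 libraries). None of 25 antioxidant genes, of 28 DNA and histone modifying enzymes and of 23 ribosomal protein genes was called by limma. An unadjusted p below 0.05 was reached by 2, 3 and 0 of them, against 1819 of all 11624 genes tested. With the block 6 antioxidant genes rose and 2 fell, and 4 of the modifying enzymes and 3 ribosomal genes rose, while 1 modifying enzyme rose without the replicate 1 libraries. Over all genes tested, 8.45% rose and 9.45% fell with the block. DNMT1, which copies DNA methylation, had a log2 fold change of 0.55 ± 0.36 and TET1, which erases it, of 2.59 ± 0.62 (adjusted p = 0.0618, 0.0252 with the block). The catalase gene CAT was called with the block (adjusted p = 0.0421), and the superoxide dismutases SOD1 and SOD3 had log2 fold changes of 0.31 ± 0.35 and 0.79 ± 0.69. All 23 ribosomal genes had a higher mean in MFGRD (median log2 fold change 0.57, 0.031 without MFGRD replicate 1 and 1.2 without MFGR replicate 1), and RPL8 and RPL10 were more than 2 times higher in both replicate 1 libraries than in the other libraries of their stage.

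**Figure D3:**
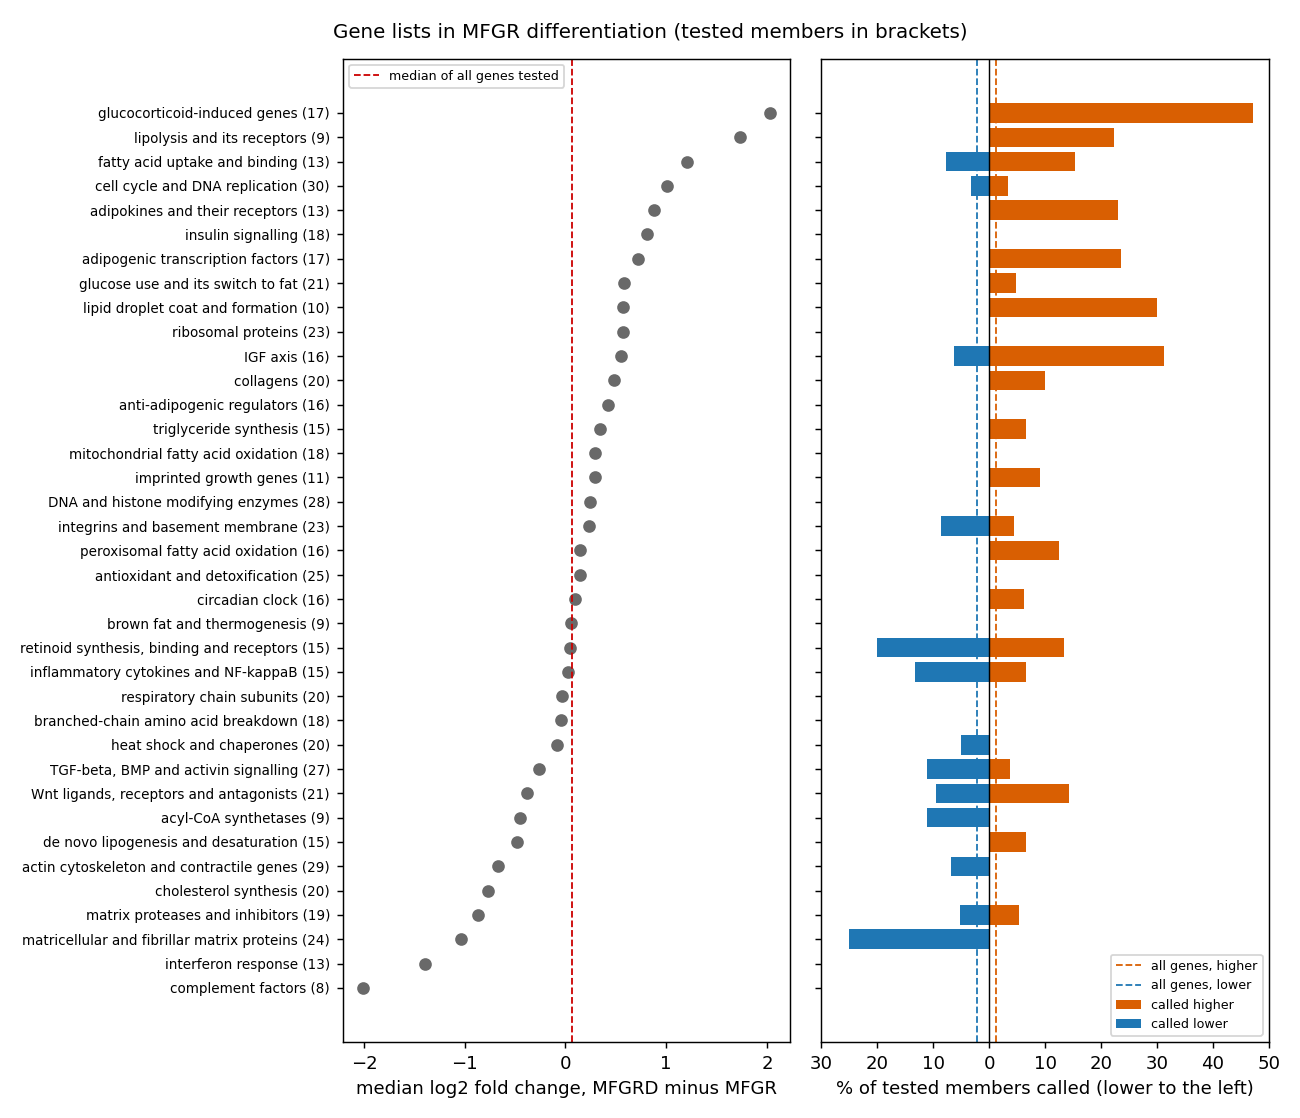
Median log2 fold change of each pathway list (left, with the number of tested members in brackets and the median of all genes tested as a dashed line) and percentage of its tested members called higher or lower (right, with dashed lines at 1.22% and 2.16% for all genes). Among the lists drawn, glucocorticoid-induced genes had the highest share of increases, 8 of 17, and matricellular genes the highest share of decreases, 6 of 24.

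Set beside the other groups of fetuses, the genes that changed in MFGR moved the same way with 1 exception. Of the 393 genes called in MFGR, 372 were also tested in control males and all 372 had the same sign there, as did 370 of 370 in control females and 377 of 378 in growth-restricted females. The median size of the change in these genes was 2.81 in MFGR against 2.65 in MC, 2.78 against 2.11 in FC and 2.85 against 2.85 in FFGR, where the MFGR values served to choose the genes. The groups gave 874 calls in MC, 50 in FC and 310 in FFGR, and 262, 40 and 178 genes were shared with the calls of MFGR, or 66.7%, 10.2% and 45.3% of the MFGR calls and 30%, 80% and 57.4% of the calls of the other group. Strongly negative span slopes also occurred in the other groups. They were -0.729 and -0.872 in MCD replicates 2 and 4, -1.18 in FC replicate 2 and -0.639 in FCD replicate 2. In growth-restricted females they were -1.47 and -0.839 in FFGR replicates 2 and 3 and -1.36 in FFGRD replicate 3. The part of these libraries in the counts was not tested. In all 4 groups 12 genes were called higher and 16 lower, and 97 genes were called in MFGR alone, which does not show that the others lacked the change. The difference itself was tested by limma, over all 32 libraries for the mean of the other groups. For MC and FFGR each fit used only the libraries of the groups compared. No gene of 12737 was called for a difference between the MFGR response and the mean of the other 3 responses. An unadjusted p below 0.05 was reached by 74 (79 with a replicate block shared by all groups, 143 with a block within each group of fetuses). None of 12220 was called between MFGR and MC (195 unadjusted, 189 with the shared block, 1708 with the block within groups) and none of 12259 between MFGR and FFGR (50, 62 and 110). All these numbers of unadjusted p-values are smaller than chance alone gives at that level, except the 1708, which is larger. The absence of calls therefore does not show that the responses were equal. No gene passed after adjustment with either block. With 4 libraries a group the intervals of these differences were wide, and for FABP4, for example, the difference from the other groups was -0.76 (95% interval -4.04 to 2.53) on the log2 scale. This interval and all later ones come from the fits without a block, which make no use of the replicate number. For FABP4 within MFGR the SE was 1.18 without the block and 0.25 with it.

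Beside the mean of the other 3 groups, the MFGR response of 20 genes of cholesterol synthesis and its control had the lowest median difference of all lists. Beside MC alone the median difference of the cholesterol genes was -1.58. That of the adipocyte markers was lower (-2.67), with all 9 negative and 1 at an unadjusted p below 0.05. Also lower were the genes that the study looks at separately in growth-restricted males (-2.29, 5 tested) and the 1 mesothelial marker tested (-1.59). Beside FFGR alone the median of the cholesterol genes was -0.85, and 5 of the 9 adipocyte markers were negative. The medians of lipolysis (-0.92) and of fatty acid synthesis and desaturation (-0.93) were lower there. Of the cholesterol genes none was called by limma within MFGR, although 2 had an unadjusted p below 0.05 and 2 fell with the block. Of the 20, 17 had a lower mean in MFGRD and the median log2 fold change was -0.77 (-1.34 without MFGR replicate 3). In MC the median was 0.75, in FC 0.02 and in FFGR 0.07. HMGCS1, which makes the first committed precursor, had values of 3297, 7671, 1536 and 6944 in MFGR and 1330.4, 1977, 1274 and 1263 in MFGRD, with a log2 fold change of -1.50 ± 0.51 (adjusted p = 0.18, 0.0348 with the block) against 0.23 in MC, -0.19 in FC and -0.08 in FFGR. MFGR replicates 2 and 4 were the high libraries in this gene. MVK, a kinase of the mevalonate branch, had a log2 fold change of -0.41 ± 0.59.

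The difference between the MFGR response and the mean of the other 3 was negative for all 20 genes, compared with 46% of all genes tested, and the median difference was -1.09. Such uniform signs were not particular to this list. Negative differences were found in 19 of 20 respiratory chain genes, 14 of 15 triglyceride synthesis genes, 9 of 9 adipocyte markers and 0 of 23 ribosomal protein genes. An unadjusted p below 0.05 was reached by 7 of them (8 with the block within groups, 13 with the span slope of each library as a covariate, 17 with array weights, which count noisier libraries less) and none passed after adjustment. When single libraries of the 32 were left out, 19 or 20 genes stayed negative and the median lay between -1.56 and -0.845, but the number with an unadjusted p below 0.05 went from 2 without MFGR replicate 2 or without MFGR replicate 4 to 14 without MFGR replicate 3. Without the replicate 1 libraries of MFGR and MFGRD all 20 were negative (median -1.26). The difference was -1.48 (95% interval -2.60 to -0.37) for HMGCS1 (adjusted p = 1). It was -1.98 (95% interval -3.63 to -0.33) for INSIG1, the sterol sensor that holds SREBP back, and -1.39 (95% interval -2.41 to -0.37) for MSMO1, a demethylase of sterol precursors, both of which were chosen after their values were seen (adjusted p = 1 and 1). The genes of this list share regulators and are not independent of each other.

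**Figure D4:**
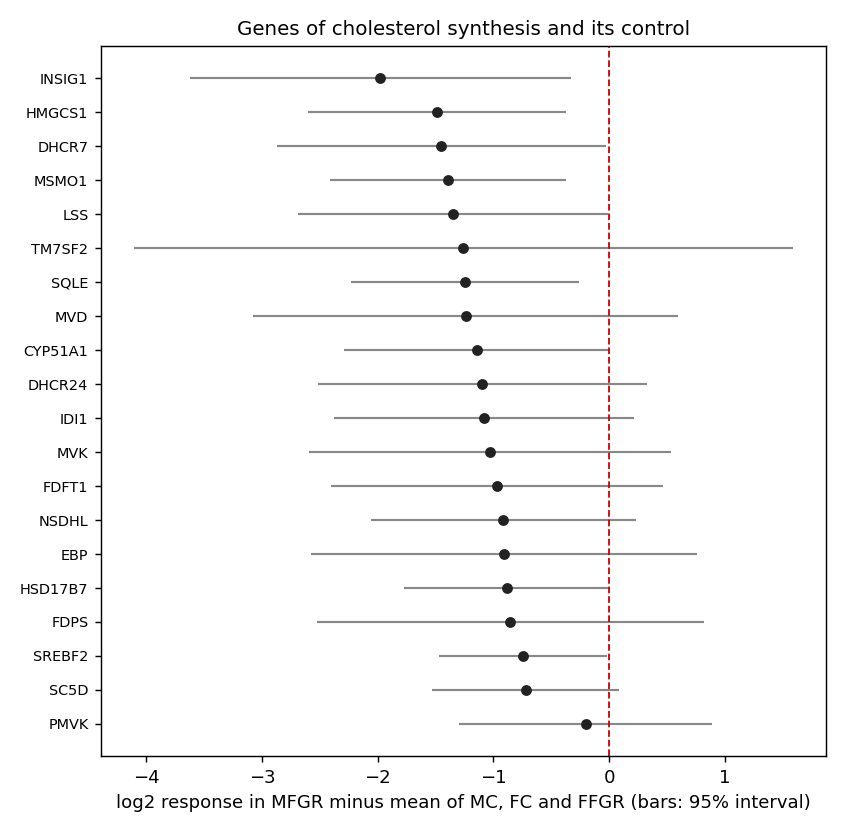
Difference in log2 response between MFGR and the mean of MC, FC and FFGR for 20 genes of cholesterol synthesis and its control, with points for the difference and bars for its 95% interval from limma. All 20 points lie below 0 and the intervals of most reach or cross it, and none of the differences passed after adjustment over all genes.

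A set of 21 genes, taken from the study's comparison of adipocyte differentiation across species, was followed in MFGR as well. The set was chosen partly on libraries of this series, so it is not independent evidence of a direction. Of the 20 genes that could be tested, 11 rose and 2 fell in MFGR (12 and 5 with the block, 11 and 3 without the replicate 1 libraries). Of the 11, ABCD2, DGAT2, KLB, PLIN4, THRSP and ZBTB16 had entered the test through MFGRD alone, so the count of increases rests partly on the level for a test. FABP4, THRSP, KLB, ADIPOQ, DGAT2, PLIN4, ZBTB16, PLIN1, ABCD2, PDK4 and FKBP5 rose and PLS3 and POSTN fell. Of the remaining genes, CEBPA, LIPE and ACSL1 were given above. NEXN, which binds actin, had values of 2033, 1942, 10964 and 10904 in MFGR and 537, 859, 1339 and 1376 in MFGRD (adjusted p = 0.12, 0.0103 with the block), LMO7, of cell junctions, had values of 1239, 5978, 3329 and 6599.7 in MFGR and 192, 1283, 1745 and 2253 in MFGRD (adjusted p = 0.327, 0.0123 with the block) and LRRFIP1, a regulator of transcription, had values of 4903, 3303, 5365 and 4365 in MFGR and 3167, 2453, 2182 and 2318 in MFGRD (adjusted p = 0.168, 0.0289 with the block). In NEXN and LRRFIP1 the groups did not overlap. TPM2, a tropomyosin, had values of 49776, 30105, 47113 and 30468 in MFGR and 46231, 16285, 8711 and 3026 in MFGRD (adjusted p = 0.319), with MFGRD replicate 1 within the MFGR range. SPRED3, an inhibitor of ERK signalling, was below the level for a test, at 8.36 to 23.4 in MFGR and 0 to 5.43 in MFGRD without overlap.

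For 6 of these genes, namely FABP4, DGAT2, THRSP, LIPE, SPRED3 and LRRFIP1, the study looks separately at growth-restricted males, so the choice is not independent of these libraries either. Within MFGR, DGAT2, FABP4 and THRSP were called higher with and without the replicate 1 libraries. DGAT2 and THRSP had entered the test through MFGRD alone, so their calls are a description of on and off genes. Neither of them was called with the larger value added before the logarithm, as given above. LRRFIP1 was called lower with the block, with the span slope and with array weights. LIPE was called higher with the span slope (adjusted p = 0.0481 in limma). The log2 fold change of FABP4 was 8.98 in MFGR against 11.94 in MC, 8.70 in FC and 8.59 in FFGR, that of LIPE 3.92 against 6.79 in MC, 4.06 in FC and 5.70 in FFGR, and that of LRRFIP1 -0.82 against -0.81 in MC, -1.13 in FC and -0.90 in FFGR. For DGAT2 it was 6.42 in MFGR against 8.71 in MC and 7.37 in FFGR, and the gene was below the level for a test in FC. THRSP was testable in MC alone, at 8.85 against 6.68 in MFGR. The difference between the MFGR response and the mean of the others was -0.97 (95% interval -4.16 to 2.22) for DGAT2, -1.60 (95% interval -4.88 to 1.68) for LIPE, 0.13 (95% interval -1.01 to 1.27) for LRRFIP1 and -0.39 (95% interval -3.96 to 3.17) for THRSP. All of these intervals include 0, and they also include differences of more than 1 log2 unit in either direction for each of the 4 genes. For DGAT2 and THRSP the mean of the others includes groups in which the gene was below the level for a test. Beside MC alone the difference was negative in all 5 tested genes, LRRFIP1 (which fell) among them, against 47.1% of all genes. The median was -2.29, with -2.95 (95% interval -6.20 to 0.294) for FABP4 and -2.17 (95% interval -5.58 to 1.24) for THRSP. None of the 5 had an unadjusted p below 0.05 in limma. Beside FFGR alone 3 of the 5 were negative (median -0.146).

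**Figure D5:**
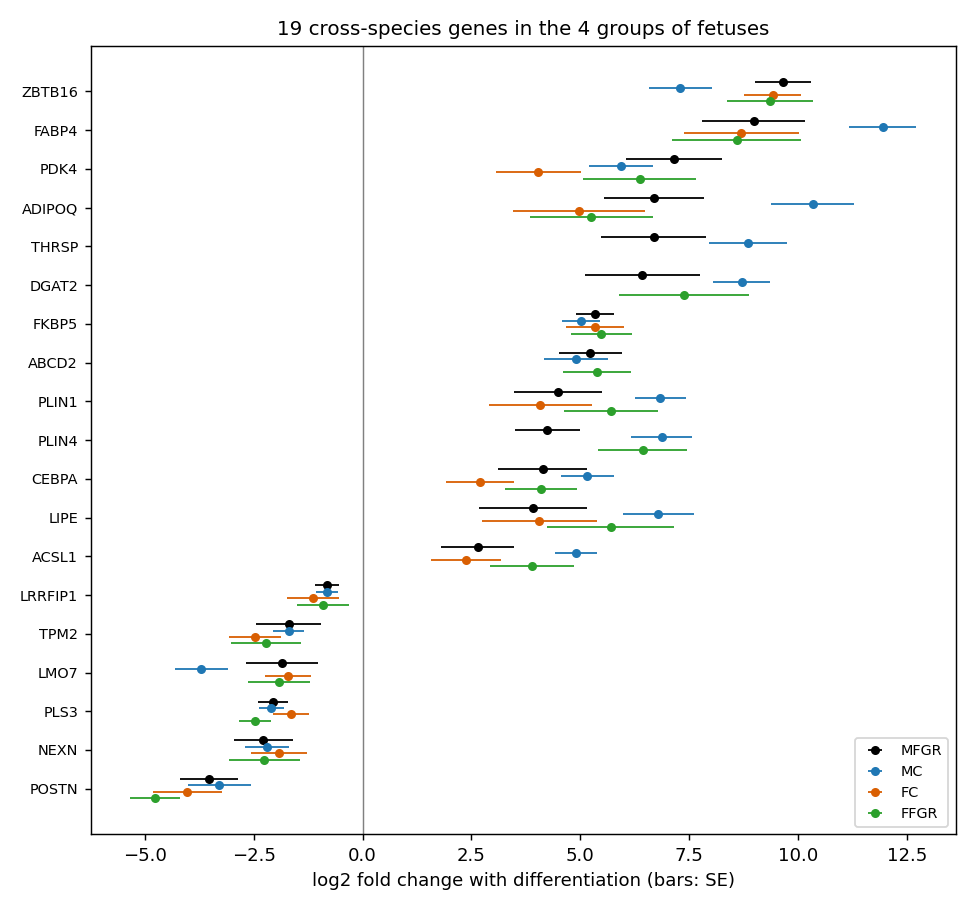
Log2 fold change with differentiation in MFGR, MC, FC and FFGR for 19 genes of the cross-species set, with bars for the standard error and no point where a gene was below the level for a test in that group. KLB, at 0 in all MFGR libraries, and SPRED3 are left out, and the MFGR point has the same sign as the points of the other groups in each gene drawn.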

How the data were processed

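The authors' read filter was a minimum mean Phred score of 34, with FastQC (0.11.9 in the submitters' processing notes) for quality control. Salmon quantified the transcripts of the Oar_rambouillet_v1.0 annotation, and the authors then normalized the reads of all 32 libraries with DESeq2. The deposited values are therefore a signal, normalized reads per transcript, with fractional values, and no count model was run on them. The authors' columns of fold changes and p-values hold the findings of their paper and were not used. Transcript values were summed over each of 21271 genes and taken as log2(value + 1), and genes with 10 or more in at least 4 of the 8 libraries were fitted with limma 3.58.1 (trended variance) in R 4.3.3 with Benjamini-Hochberg adjustment. The calling rule was an adjusted p below 0.05 with a fold change above 1.5. Figures and summaries used Python 3.11.15, numpy 2.4.6, pandas 2.3.3 and matplotlib 3.10.9. Only the unpaired fit of MFGRD against MFGR was tested on simulated data, in which the libraries varied independently. The fits with a block, weights or a covariate and those of the differences in response were not.

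The main fit took the libraries as unpaired, and its fold changes, SE and p-values make no use of the replicate number. Same-numbered libraries varied together, with a correlation above 0.1 in each pair. A fit with the replicate number as a block is therefore given as the alternative. The labels name separate samples and not separate animals, so p-values measure the spread between these samples. Named genes were the 15 largest increases and decreases among called genes whose groups did not overlap, the called members of each list, some of the first 4 uncalled members in list order, and all genes of the study's cross-species set. The members and lists were chosen with earlier results of these data known, and some genes, left out of the lists, are not reported here. Depth limits the lowest values, since 3 reads correspond to values of 2.088 to 5.405 in these libraries.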

Additional observations from a re-analysis of the deposited data

Results flagged for a closer look

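Single libraries lay far from the others of their group for the following values, where the gap to the nearest library took up more of the group's range than Dixon's 95% critical value for 4 samples. Chance alone gives such a gap in about 1 in 20 groups. MFGRD replicate 1 had 16927 genes above 0 against 13808 to 14206 and a span slope of -0.909 against 0.0111 to 0.169. 

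MFGR replicate 1 was far above the other 3 libraries of its group for COL28A1 (0.697 against 0), IGFBP3 (135 against 28.2 to 33.9), NR5A2 (1.39 against 0), OXT (2.03 against 0), PTX3 (399 against 107 to 123), THRSP (1.35 against 0) and UCP2 (4.85 against 1.05 to 1.21). MFGR replicate 1 was far below the other 3 for GPAM (19.5 against 224 to 323), GPAT3 (4.17 against 14.7 to 16.2) and IGF1R (424 against 2180.5 to 3013). MFGR replicate 2 was far above the other 3 libraries of its group for PPP1R1B (1.07 against 0). MFGR replicate 2 was far below the other 3 for CCL2 (1182 against 4118 to 4229). MFGR replicate 3 was far below the other 3 for C1S (3258 against 11441 to 14478). MFGR replicate 4 was far above the other 3 libraries of its group for ABCD2 (1.06 against 0), MMP1 (2288 against 17.3 to 34.8), MX1 (26049.5 against 457 to 782), MX2 (10271 against 14.9 to 45.7) and PAPPA2 (29.8 against 3.74 to 5.46). MFGR replicate 4 was far below the other 3 for COL18A1 (93.5 against 386 to 456). MFGRD replicate 1 was far above the other 3 libraries of its group for CIDEC (328 against 10.0 to 15.5), GPD1 (2971 against 215 to 263) and PPARG (1489.6 against 174 to 236). MFGRD replicate 1 was far below the other 3 for CTHRC1 (18.3 against 28.5 to 30.9). MFGRD replicate 2 was far above the other 3 libraries of its group for HMGCS1 (1977 against 1263 to 1330.4), HSPB7 (4.19 against 0) and OXT (355 against 90.8 to 110.2). MFGRD replicate 3 was far below the other 3 for CRABP2 (5.47 against 47.6 to 56.7), ITGA3 (3.09 against 10.3 to 12.6) and PLIN2 (3199 against 7549 to 8770.2). MFGRD replicate 4 was far below the other 3 for SLC2A1 (250 against 1092 to 1239.8) and STAT5A (511 against 709 to 735). Genes at 0 in the other 3 libraries are separated here by 1 or a few reads.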

How the results depend on the processing

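The number of genes called between MFGRD and MFGR was 393. It was 127 with a filter of 20 CPM (reads scaled to library size) in 3 libraries, 210 for single transcripts, 654 in a fit of all 32 libraries, 1344 with array weights, 1650 with the span slope as a covariate, 2081 with the replicate block, 2436 with the block and array weights, and 135 to 345 when 1 library was left out. With the block and without the replicate 1 libraries, an alternative chosen after seeing the data like all that leave out both replicate 1 libraries, it was 1569. The cause of these moves was not tested. No filter, pseudocounts of 0.1 and 10, quantile normalization and leaving out both replicate 1 libraries gave 343 to 579 calls.

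Of the 83 named genes called, 40 kept the call in all 8 fits that left out 1 library, and calls were lost most often without MFGR replicate 2 (38) and least often without MFGR replicate 1 (8). All 83 were called with the block, with array weights and with the span slope. Calls were lost for 8 genes without the replicate 1 libraries, 7 in the fit of all 32 libraries, 5 without a filter, 4 with a pseudocount of 0.1, 5 with 10, 2 with quantile normalization and 13 with the CPM filter. PLIN1 (adjusted p = 0.0522 to 0.0795), FST, LAMA5, PDE3B, STAT5A and STC1 lost it in 3 or more of these. The block changed the call of no other gene named beyond those given with its value.

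The difference between the MFGR response and that of MC gave 1 gene for single transcripts and the difference from FFGR 1 gene without a filter, and all differences gave 0 in every fit that left out 1 library. The span slope difference of -0.0338 was 0.0173 over transcripts with 100 in 4 libraries and -0.322 to 0.217 when 1 library was left out, and with same-numbered libraries paired its exact sign permutation p was 0.625.

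Among uncalled genes, the log2 fold change of ACACA turned to -0.50 with array weights, -0.37 with the block and weights, and -0.67 without the replicate 1 libraries with or without the block, and that of FASN to -0.35, -0.18 and -0.46. COL1A2 turned to 0.048 with array weights and COL3A1 to 0.012 with the span slope. With 1 library left out the ranges were -0.64 to 0.40 for ACACA, -0.12 to 1.18 for ACACB, -0.86 to 0.16 for CEBPB, -0.68 to 0.06 for COL1A1, -0.44 to 0.20 for COL1A2, -0.36 to 0.28 for COL3A1, -0.072 to 0.72 for FASN, -0.34 to 0.69 for IGF1R and -0.18 to 1.12 for PDGFRA.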

Other observations

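Adipocyte genes differed widely among the MFGRD libraries. Replicate 1 was the highest for FABP4, ADIPOQ, PLIN1, DGAT2, THRSP, LIPE and ACSL1, as given above, and also for GPD1, which makes the glycerol backbone of triglycerides (9.75, 49.9, 55.6 and 71.8 in MFGR and 2971, 226, 263 and 215 in MFGRD; adjusted p = 0.0889). In the same library ZBTB16 and FKBP5 were the lowest of the 4. This library also stood apart in its span slope and in its number of genes above 0, whose part in these values was not tested.

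Interferon-induced genes were high in MFGR replicate 4. MX1, an antiviral GTPase, had values of 563, 782, 457 and 26049.5 in MFGR and 309.5, 265, 1193 and 1028 in MFGRD, its relative MX2 had values of 17.5, 45.7, 14.9 and 10271 in MFGR and 14.4, 3.36, 5.42 and 56.9 in MFGRD, IFIT3, which binds viral RNA, had values of 418, 287, 87.4 and 3548 in MFGR and 28.9, 27.7, 37.3 and 137 in MFGRD, and IFI6 had values of 7354, 3039, 617 and 25622 in MFGR and 2061, 548, 1994 and 1352 in MFGRD. These 4 genes were chosen after their values were seen. None of them was called (adjusted p = 0.687, 0.532, 0.153 and 0.499), although IFIT3 was with the block (adjusted p = 0.0138), and the 2 with the largest values in that library were MX1 and IFI6.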
